A study of Mus musculus with 6 samples.

Results

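The 5 Serpina1 genes of the mouse (Serpina1a, Serpina1b, Serpina1c, Serpina1d and Serpina1e) were described here across 6 kidney libraries, as single genes and as a family sum. They were taken by name from a table of 54146 genes, with measured levels of these libraries already known, so their levels and ratios are given as a description with no test. In G2APOL1 kidneys the family sum was 256 ± 32.1 CPM (the read count normalised to library size) and was mostly Serpina1d. In G0APOL1 kidneys it was 8.99 ± 2.68 CPM and in WT kidneys 109 ± 5.07 CPM, and in both of these groups it was mostly Serpina1b (SD, n = 2 libraries each).

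Bulk RNA of frozen kidney was sequenced from 3 groups of 2 libraries. The G2APOL1 and G0APOL1 mice carried an inducible transgene of human APOL1, the apolipoprotein L1 gene, in the G2 risk form or in the G0 form; the WT mice were the wild-type controls. The study's title calls this expression cell-specific and its design text puts the prefix EC before both transgenic genotypes without spelling it out; the driver, an inducing agent, the strain, the sex and the age at collection are not given in the labels. In all 3 groups a single kidney was taken out when the mice were 6 weeks old, and a 4% salt diet followed, so no group stands for an untreated kidney. Whether both libraries of a group stem from different animals is not stated, so every SD and p value measures the spread between these samples. In bulk tissue, fewer cells of a type and less RNA per cell cannot be told apart. Total counts per library were between 8490396 and 11800932, mitochondrial transcripts took 12.6% to 21.1% of them, and all 4 Y-linked genes of the sex list had counts in all 6 libraries. The human transgene is not analysed here.

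Alpha-1 antitrypsin is a secreted inhibitor of serine proteases (a serpin), made mainly by hepatocytes and best known for binding neutrophil elastase. A serpin presents a flexible reactive-centre loop as bait; the residue before the cleaved bond, called P1, largely sets which proteases are bound. Humans have a single gene, SERPINA1, while mice carry a cluster of copies whose proteins differ mostly in this loop, and whose number is known to differ between mouse strains. The strain is not given here and values are those of the 5 annotated copies, so whether every group carries all 5, in the same alleles, was not tested. In the kidney, circulating alpha-1 antitrypsin can pass the glomerular filter and be taken up by proximal tubule cells.

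The copies lie on chromosome 12, minus strand, within 230.8 kb (GRCm38). In chromosome order these are Serpina1b (ENSMUSG00000071178.11, chr12:103728156-103830373), Serpina1d (ENSMUSG00000071177.4, chr12:103763594-103773592), Serpina1a (ENSMUSG00000066366.14, chr12:103853589-103863562), Serpina1c (ENSMUSG00000079015.2, chr12:103894926-103904887) and Serpina1e (ENSMUSG00000072849.10, chr12:103946931-103958975). The annotated span of Serpina1b contains that of Serpina1d, but the exons of these 2 genes do not overlap. Their coding sequences were 91.5% to 96.7% identical over the 10 pairs, against 50.5% to 53.3% for each member and the neighbouring gene Serpina1f. The 60 coding bases in which the members differ most hold the reactive-centre loop, and are shown because the reads that tell the copies apart include those over this stretch. Capitals mark the 18 positions that vary among the 5 copies; a median of 3 positions varied over the 1124 windows of this length. The sequences come from GENCODE M21 transcripts (GRCm38), 5′ to 3′ on the coding strand, and cover coding bases 1170 to 1229 of 1311 in Serpina1a and 1101 to 1160 of 1242 in each of the other members.
Serpina1a: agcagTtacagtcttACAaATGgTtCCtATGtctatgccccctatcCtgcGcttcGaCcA
Serpina1b: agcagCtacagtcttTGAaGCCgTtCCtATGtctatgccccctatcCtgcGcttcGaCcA
Serpina1c: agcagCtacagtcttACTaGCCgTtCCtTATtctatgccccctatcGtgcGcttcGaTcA
Serpina1d: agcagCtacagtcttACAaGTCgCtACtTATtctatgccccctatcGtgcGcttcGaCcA
Serpina1e: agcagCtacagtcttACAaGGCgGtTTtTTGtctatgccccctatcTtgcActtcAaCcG

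The triplet just before the shared tct codes the P1 residue of the loop. It was ATG, a methionine codon, in Serpina1a and Serpina1b; TAT, a tyrosine codon, in Serpina1c and Serpina1d; and TTG, a leucine codon, in Serpina1e. Within this window Serpina1a and Serpina1b differed at 6 positions, Serpina1c and Serpina1d at 5, and Serpina1b and Serpina1d at 9. Over their whole coding sequence, Serpina1b and Serpina1d differed at 43 of 1242 bases. The near-identity limits how far the authors' counting could assign reads: of the 150-base windows of each transcript, 40.7% in Serpina1a, 16.4% in Serpina1b, 50.5% in Serpina1c, 20.2% in Serpina1d and 7.57% in Serpina1e also occur in another member. Of the 21 member values above 0 in the table, 19 were not whole numbers, whereas the family sum was whole or within 0.01 of it in every library. Values of single members are therefore uncertain where reads were split, and the family sum does not depend on a split between members. Outside the family, the pseudogene Gm8893 holds 2.36% to 6.18% of the windows of each member, most in Serpina1d, and was itself at 0 counts in all 6 libraries. Whether the sum holds reads of Gm8893 was not tested.

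**Figure D1:**
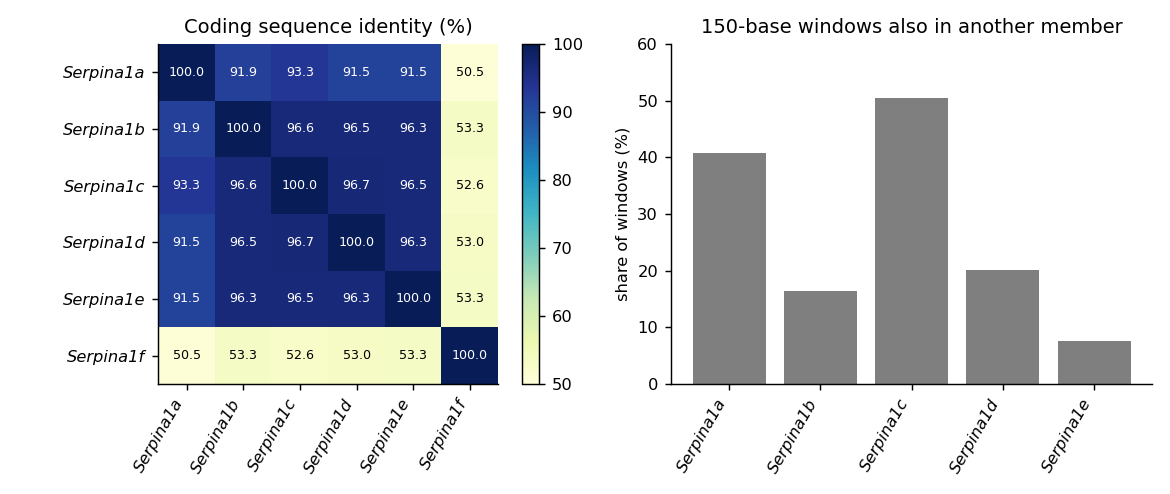
Left, identity of the coding sequences of the 5 Serpina1 copies and Serpina1f (percent, 1 cell per pair); right, share of 150-base windows of each transcript that also occur in another member (percent). The 5 copies are 91.5% to 96.7% identical to one another, and Serpina1c shares the largest part of its windows, 50.5%.

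Serpina1d and Serpina1b, the copies that led the family in different groups, have 93.1% identical promoters (20 differences over 291 aligned bases). Both are shown from 250 bases before to 50 bases after the RefSeq start (GRCm38.p6, minus strand, 5′ to 3′), at chr12:103773584-103773883 for Serpina1d and chr12:103738140-103738439 for Serpina1b. On the minus strand the GENCODE gene begins at 103773592 for Serpina1d, inside its window, and at 103830373 for Serpina1b, upstream of its window. The outermost annotated start of Serpina1b is thus not covered. Capitals mark the longest run of letters common to the promoters of all 5 members.
Serpina1d: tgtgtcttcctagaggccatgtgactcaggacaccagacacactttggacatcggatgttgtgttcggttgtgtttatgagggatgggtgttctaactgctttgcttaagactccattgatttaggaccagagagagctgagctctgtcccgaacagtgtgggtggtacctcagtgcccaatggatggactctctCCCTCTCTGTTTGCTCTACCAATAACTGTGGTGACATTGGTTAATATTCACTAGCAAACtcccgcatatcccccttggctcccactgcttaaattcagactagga
Serpina1b: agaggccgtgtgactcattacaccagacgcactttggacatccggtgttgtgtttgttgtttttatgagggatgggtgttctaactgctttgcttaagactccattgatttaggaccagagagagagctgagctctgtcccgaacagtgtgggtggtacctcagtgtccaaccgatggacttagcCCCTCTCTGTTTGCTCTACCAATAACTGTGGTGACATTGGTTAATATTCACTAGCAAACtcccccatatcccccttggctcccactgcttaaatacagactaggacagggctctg

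All 5 members matched RefSeq by symbol. The run they share was 59 bases long and was in no other of the 32851 promoter windows of this length, on either strand, so the copies that were high and low in a group share it. Counted from the RefSeq start, it lay at -55 to 4 in Serpina1d and at -65 to -7 in Serpina1b. The shared run is a description of the letters in these windows and not a site of binding.

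The family sum held 3254 and 2186 counts in G2APOL1 replicates 1 and 2, 102 and 60 counts in G0APOL1, and 1136 and 960 counts in WT. Scaled to library size, these were 279 and 234 CPM in G2APOL1, 10.9 and 7.10 CPM in G0APOL1, and 113 and 105 CPM in WT. The groups did not overlap: both G2APOL1 libraries were above both WT libraries, and both G0APOL1 libraries were below them. The ratio of group means was 2.35 in G2APOL1 against WT (log2 1.23) and 28.5 in G2APOL1 against G0APOL1 (log2 4.83), and the sum was 12.1-fold lower in G0APOL1 than in WT (log2 -3.60). Of the 14386 genes that passed the low-count filter, 4.55% were as far or farther up in G2APOL1 against WT, 1.44% as far or farther down in G0APOL1 against WT, and 0.688% as far or farther up in G2APOL1 against G0APOL1. An order with G2APOL1 above WT and G0APOL1 below WT, without overlap, occurred in 82 genes, or 0.570%. Since the members were chosen on these contrasts, nothing is read from these shares.

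**Figure D2:**
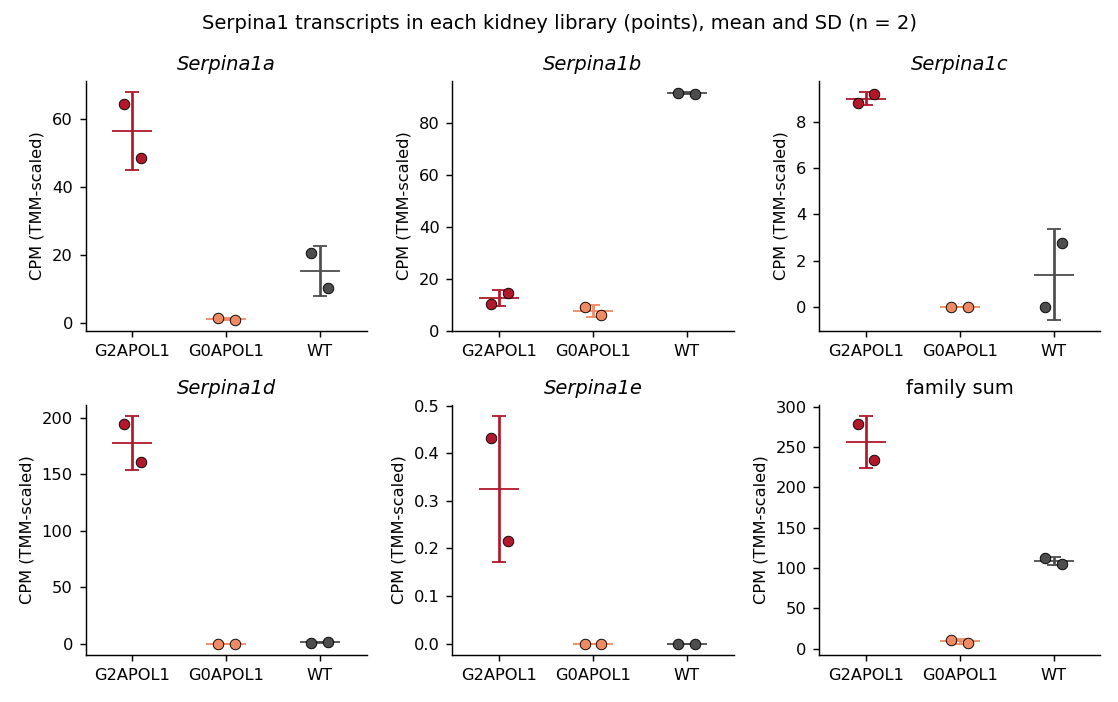
Normalised read counts (CPM, TMM-scaled, linear axis) of each Serpina1 gene and of the family sum in every library; points are libraries, bars the mean and SD of 2, with G2APOL1, G0APOL1 and WT from left to right. Serpina1d is near 0 outside the 2 G2APOL1 libraries, at 195 and 161 CPM, while Serpina1b is highest in the 2 WT libraries, at 91.7 and 91.1 CPM.

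Serpina1d, whose loop carries the tyrosine codon, made up most of the G2APOL1 signal. It had 2270.5 and 1505 counts in G2APOL1, 0 and 0 in G0APOL1, and 5.34 and 13.3 in WT. On the CPM scale it was at 195 and 161 in G2APOL1, 0 and 0 in G0APOL1, and 0.530 and 1.46 in WT. All 3 groups were apart, with both G0APOL1 libraries at 0. The mean level was 179-fold higher in G2APOL1 than in WT (log2 7.48), a ratio that rests on 18.6 counts over both WT libraries. Without WT replicate 1 or WT replicate 2 the log2 ratio was 6.93 or 8.39. Against a floor of 3 counts over the G0APOL1 group, it was at least 1067-fold higher in G2APOL1, and at least 5.77-fold lower in G0APOL1 than in WT; such bounds cover counting error only. The second bound was 3.15 without WT replicate 2 and 8.67 without WT replicate 1. With 1 G0APOL1 library left, where the same floor of 3 counts stands over that library, the bounds were 506 and 561 for the first and 2.74 and 3.03 for the second.

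Serpina1b, with the methionine codon, went the other way between G2APOL1 and WT. It was at 10.6 and 14.9 CPM in G2APOL1, 9.47 and 6.15 CPM in G0APOL1, and 91.7 and 91.1 CPM in WT. Both WT libraries stood above all 4 transgenic libraries, and the lowest G2APOL1 value was above the highest G0APOL1 value by only 1.08 CPM. Mean levels were 12.7 ± 3.06 CPM in G2APOL1, 7.81 ± 2.35 CPM in G0APOL1 and 91.4 ± 0.422 CPM in WT (SD, n = 2 each). That is 7.19-fold lower in G2APOL1 than in WT (log2 -2.85) and 11.7-fold lower in G0APOL1 than in WT (log2 -3.55). Between G2APOL1 and G0APOL1 the ratio was 1.63 (log2 0.70), a difference of means of 4.90 CPM.

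Serpina1a, the other copy with the methionine codon, followed the family sum. It was at 64.5 and 48.4 CPM in G2APOL1, 1.42 and 0.946 CPM in G0APOL1, and 20.4 and 10.1 CPM in WT. The 3 groups did not overlap, although the 2 WT libraries differed from each other by a factor of 2.01. The mean was 3.70-fold higher in G2APOL1 than in WT (log2 1.89), 12.9-fold lower in G0APOL1 than in WT (log2 -3.69), and 47.8-fold higher in G2APOL1 than in G0APOL1 (log2 5.58). Without WT replicate 1, the higher of the 2, it was 5.57-fold higher in G2APOL1 than in WT (log2 2.48) and 8.58-fold lower in G0APOL1 than in WT (log2 -3.10). The 2 copies with the same P1 codon thus had opposite signs in G2APOL1 against WT and the same sign in G0APOL1 against WT; the difference between them was not tested.

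Serpina1c and Serpina1e were minor members. Serpina1c was at 8.83 and 9.22 CPM in G2APOL1, 0 and 0 in G0APOL1, and 0 and 2.78 CPM in WT, so that G2APOL1 stood above the rest while G0APOL1 and WT overlapped at 0. Its ratio of 6.49 in G2APOL1 against WT (log2 2.70) rests on 25.3 counts in WT replicate 2, and is 1.70 on the log2 scale without WT replicate 1, which had none. Against the floor of 3 counts over the G0APOL1 group it was at least 53.5-fold higher in G2APOL1, a bound of 25.4 or 28.1 with 1 G0APOL1 library left. In Serpina1c 429 exonic bases overlap an antisense gene, B430119L08Rik, which had 1 count in 1 G2APOL1 library. Serpina1e, with the leucine codon, had 5.05 and 2.02 counts in G2APOL1 and 0 in each of the other 4 libraries, and was the only member that did not pass the low-count filter. Counting all 5, 4 members (Serpina1a, Serpina1c, Serpina1d, Serpina1e) lay above WT in G2APOL1 without overlap, where 27.1% of tested genes did, and Serpina1b lay below it, where 28.1% did. In G0APOL1 3 members (Serpina1a, Serpina1b, Serpina1d) lay below WT without overlap, where 24.3% of tested genes did. All 5 lay above G0APOL1 in G2APOL1 without overlap, where 19.7% of tested genes did. These contrasts chose the members, so nothing is read from the counts.

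Per kilobase of exonic sequence (all annotated exons merged), which allows a rough comparison of levels between genes, the order of the members changed between groups. In G2APOL1 Serpina1d was at 127 CPM per kb, Serpina1a at 30.8, Serpina1c at 6.63, Serpina1b at 5.26 and Serpina1e at 0.201. The order of Serpina1c and Serpina1b there depends on the length used. Serpina1b has 2415 exonic bases, but 1762 in its transcript with the longest coding sequence, while Serpina1c has 1361 by either length. In G0APOL1 Serpina1b was at 3.23 CPM per kb and Serpina1a at 0.645, with the others at 0. In WT Serpina1b was at 37.8 CPM per kb, Serpina1a at 8.34, Serpina1c at 1.02 and Serpina1d at 0.713, with Serpina1e at 0. Among the 14380 tested genes with an exonic length, Serpina1d ranked 419 by this level in G2APOL1 and 12030 in WT, while Serpina1b ranked 5603 in G2APOL1, 7285 in G0APOL1 and 1144 in WT. Serpina1a ranked 1479 in G2APOL1, 11886 in G0APOL1 and 4108 in WT.

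The make-up of the family within a library does not depend on scaling between libraries. Serpina1d took 69.8% (95% Wilson interval 68.2 to 71.3) and 68.9% (66.9 to 70.8) of the family counts in the 2 G2APOL1 libraries. It took 0 of 102 and 0 of 60 counts in G0APOL1, which allows shares of up to 2.94% and 5.0%. In WT it took 0.470% (0.206 to 1.07) and 1.38% (0.815 to 2.34). The Serpina1d intervals of the 2 G2APOL1 libraries overlapped each other and none of those of the other libraries. For Serpina1b the 2 G2APOL1 intervals did not overlap, so counting error is not the whole spread between replicates. Reads are not independent molecules, so intervals and floors cover counting error only. The members were chosen on these contrasts, so nothing is read from the intervals.

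Serpina1b took 3.78% (3.18 to 4.49) and 6.37% (5.42 to 7.47) of the family in G2APOL1, 87.0% (79.1 to 92.2) and 86.7% (75.8 to 93.1) in G0APOL1, and 81.4% (79.0 to 83.6) and 86.4% (84.1 to 88.4) in WT. The intervals of G0APOL1 overlapped those of WT. They are wide at 102 and 60 counts, so this overlap cannot decide whether the make-up was the same. The 2 WT intervals did not overlap each other. Serpina1a took 23.1% and 20.7% in G2APOL1, 13.0% and 13.3% in G0APOL1, and 18.1% and 9.61% in WT, where the 2 libraries lay on either side of both G0APOL1 values. Serpina1c took 3.16% and 3.95% in G2APOL1, 0 in G0APOL1, and 0 and 2.63% in WT.

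**Figure D3:**
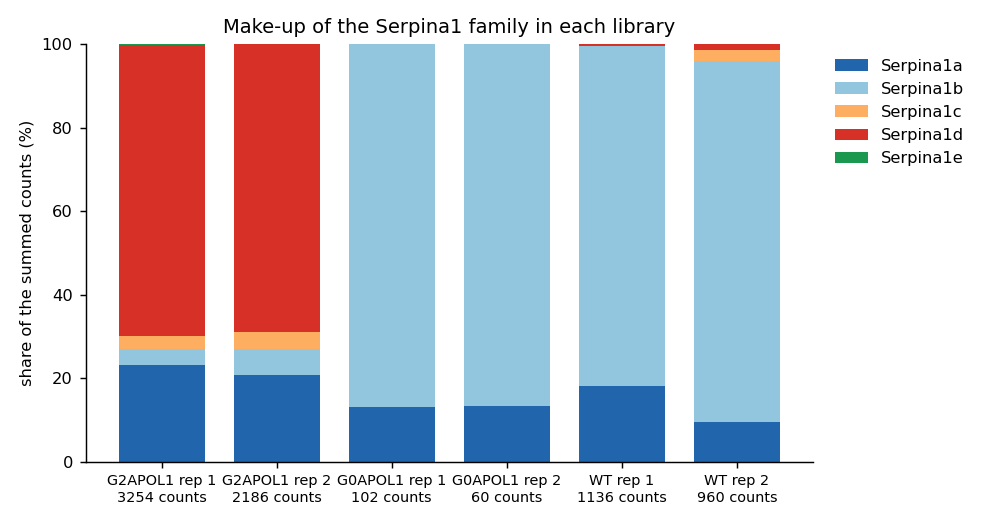
Share of each of the 5 copies in the summed Serpina1 counts of a library (percent, stacked to 100), with the number of counts under each bar and G2APOL1, G0APOL1 and WT libraries from left to right. Serpina1d takes 69.8% and 68.9% in the G2APOL1 libraries, and Serpina1b takes 81.4% to 87.0% in the G0APOL1 and WT libraries.

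Grouped by the P1 codon, transcripts with the tyrosine codon (Serpina1c and Serpina1d) took 72.9% and 72.8% of the family in G2APOL1, 0 in both G0APOL1 libraries, and 0.470% and 4.02% in WT. Transcripts with the methionine codon (Serpina1a and Serpina1b) took 26.9% and 27.1% in G2APOL1, 100% in both G0APOL1 libraries, and 99.5% and 96.0% in WT. In counts of the same library, Serpina1d was 18.4 and 10.8 times Serpina1b in G2APOL1, 0 in G0APOL1, and 0.00577 and 0.0160 times in WT. Serpina1a was 6.11 and 3.25 times Serpina1b in G2APOL1, 0.150 and 0.154 times in G0APOL1, and 0.223 and 0.111 times in WT. The G0APOL1 ratios of Serpina1a to Serpina1b lay between those of the 2 WT libraries.

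The genes around the cluster were read by their own values. The 6 pseudogenes within it had 0 counts in every library. Serpina1f, a more divergent clade A serpin next to Serpina1b, was at 228 and 214 CPM in G2APOL1, 149 and 111 CPM in G0APOL1, and 123 and 107 CPM in WT. It was higher in G2APOL1 than in WT (log2 fold change 0.94 ± 0.19 SE, edgeR quasi-likelihood test, Benjamini-Hochberg adjusted p = 0.0104), a call lost without either G2APOL1 library, at an adjusted p of up to 0.115. In G0APOL1 against WT its log2 fold change was 0.18 ± 0.19 (adjusted p = 0.668, edgeR), where the Serpina1 sum was 12.1-fold lower. In counts of the same library, the Serpina1 sum was 1.23 and 1.09 times Serpina1f in G2APOL1, 0.0730 and 0.0638 times in G0APOL1, and 0.917 and 0.984 times in WT.

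Serpina10, the inhibitor of coagulation factor Xa that depends on protein Z, was at 0.514 and 0 CPM in G2APOL1, 9.61 and 5.68 CPM in G0APOL1, and 8.13 and 3.30 CPM in WT. It fell in G2APOL1 against WT (log2 -4.32 ± 0.95, adjusted p = 0.0151, edgeR), a call lost in a fit of only the 4 libraries compared and without G2APOL1 replicate 2, at an adjusted p of up to 0.0673. With so few counts in G2APOL1 the fitted value itself ran from -8.73 without G2APOL1 replicate 1, which leaves a library at 0, to -3.42 without G2APOL1 replicate 2, and was -3.52 without WT replicate 1. Serpina6, which codes the corticosteroid carrier, had counts in 1 G0APOL1 library alone (0.828 CPM), and Serpina11 in WT replicate 1 alone (0.297 CPM). Ppp4r4, a regulatory subunit of protein phosphatase 4 on the other side of Serpina10, was at 4.63 and 4.06 CPM in G2APOL1, 6.30 and 4.85 CPM in G0APOL1, and 4.96 and 5.93 CPM in WT. Serpina3c, near the far end of the plotted window, had counts in G2APOL1 replicate 2 alone (3.10 CPM). Serpina9, Serpina12, Serpina16 and Serpina3a had 0 counts in all 6 libraries.

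**Figure D4:**
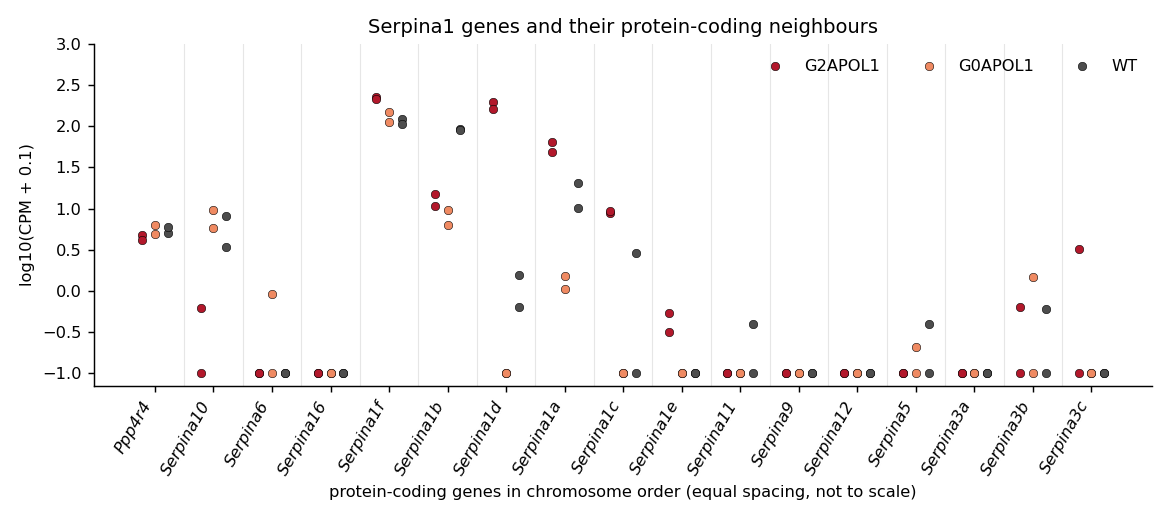
Level of each protein-coding gene within 200 kb of the Serpina1 copies, in chromosome order at equal spacing; the vertical axis is log10 of CPM plus 0.1, each point is a library, and a value of -1 is 0 counts. Serpina1f, next to Serpina1b, is above 107 CPM in all 6 libraries, whereas Serpina1d is at 0 in both G0APOL1 libraries and at most 1.46 CPM in WT.

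Other genes of the pathway were tested in the fit over all genes, and a gene is said to rise or fall where its adjusted p was under 0.05. Of the 14386 genes tested, 8.19% were called in G2APOL1 against WT (4.57% higher, 3.62% lower), 8.17% in G0APOL1 against WT (4.48% higher, 3.68% lower) and 0.480% in G2APOL1 against G0APOL1 (0.174% higher, 0.306% lower). Of 21 other clade A serpins, 12 had a count in some library and 4 passed the filter. In G2APOL1 against WT 1 of the 4 rose (Serpina1f) and 2 fell (Serpina10 and Serpina3n). Serpina3n, an acute phase inhibitor of granzyme B in the mouse, was at 0 and 0.748 CPM in G2APOL1, 0.961 and 1.06 CPM in G0APOL1, and 7.44 and 10.3 CPM in WT (log2 -4.60 ± 1.07, adjusted p = 0.0192 in G2APOL1 against WT, edgeR; lost without G2APOL1 replicate 1 and without WT replicate 2, at up to 0.0941). Its fitted value was -9.44 without G2APOL1 replicate 2, which leaves a library at 0, and -3.52 without G2APOL1 replicate 1. None of the 4 passed in G0APOL1 against WT, where 1 had an unadjusted p under 0.05 and DESeq2 called 1, or in G2APOL1 against G0APOL1, where 2 had an unadjusted p under 0.05 and DESeq2 called the same 2 (Serpina10 and Serpina1f). Among 9 tested genes flanking the serpin cluster, Ifi27, an interferon-induced gene, fell in G2APOL1 against WT (log2 -1.94 ± 0.27, adjusted p = 0.00105) and in G0APOL1 against WT (log2 -1.44 ± 0.26, adjusted p = 0.00498, edgeR). The other 8 did not pass in any comparison with edgeR; DESeq2 also called Ifi27l2a in G0APOL1 against WT.

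Of the 13 proteases on the list of alpha-1 antitrypsin targets, 9 had a count and 4 were tested. Elane, the neutrophil elastase, had 0 counts in all 6 libraries, and of 13 neutrophil markers 4 had a count and 1 was tested, with a summed level of 0.320 to 2.20 CPM over the libraries. Klk1, tissue kallikrein, rose in G2APOL1 against WT (log2 0.82 ± 0.23, adjusted p = 0.0435) and in G0APOL1 against WT (log2 1.24 ± 0.23, adjusted p = 0.00547, edgeR). The Klk1 call in G2APOL1 was lost when any 1 of the 4 transgenic libraries was left out and in a fit of the 4 libraries compared. St14, which codes the epithelial protease matriptase, fell in G2APOL1 against WT (log2 -0.92 ± 0.23, adjusted p = 0.0262) and in G0APOL1 against WT (log2 -1.05 ± 0.23, adjusted p = 0.0133, edgeR). The St14 call was lost without either G2APOL1 library or WT replicate 1 in the first comparison, and without G0APOL1 replicate 2 in the second. The list's median log2 fold change was -0.17 in G2APOL1 against WT and 0.093 in G0APOL1 against WT; the median over all genes tested was -0.035, 0.018 and, in G2APOL1 against G0APOL1, -0.016.

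Of 21 other protease inhibitors tested, 1 rose and 5 fell in G2APOL1 against WT, and 4 fell in G0APOL1 against WT; in G2APOL1 against G0APOL1 edgeR and DESeq2 called 0, and 4 had an unadjusted p under 0.05. Serping1, the inhibitor of complement C1, averaged 44.0 ± 4.67 CPM in G2APOL1, 68.1 ± 11.6 CPM in G0APOL1 and 252 ± 33.9 CPM in WT (SD, n = 2 each). It fell in both (log2 -2.52 ± 0.21, adjusted p = 2.34e-05 in G2APOL1 against WT; log2 -1.89 ± 0.20, adjusted p = 0.000179 in G0APOL1 against WT, edgeR). Cst3 (the cysteine protease inhibitor cystatin C) and Timp2 (an inhibitor of metalloproteinases) fell in both as well, with log2 fold changes of -1.24 ± 0.19 and -0.91 ± 0.19 in G2APOL1 against WT. The Cst3 call was lost without G2APOL1 replicate 2 in G2APOL1 against WT and, in G0APOL1 against WT, without either G0APOL1 library and in a fit of the 4 libraries compared, and the Timp2 call without either G2APOL1 library in G2APOL1 against WT. Of this list 2 to 5 fell in G2APOL1 against WT when a library was left out (2 without either G2APOL1 library), and 2 to 5 in G0APOL1 against WT (2 without G0APOL1 replicate 2). The median of the list was -0.48 in G2APOL1 against WT and -0.61 in G0APOL1 against WT. Serping1, Cst3 and Timp2 were below WT in both transgenic groups, whereas the Serpina1 sum was below WT in G0APOL1 and above it in G2APOL1.

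Of 15 tested transcription factors of hepatic and proximal tubule genes, 1 rose and 2 fell in G2APOL1 against WT, and 2 rose in G0APOL1 against WT. In G2APOL1 against G0APOL1 edgeR called 0, DESeq2 called Cebpb, and 3 had an unadjusted p under 0.05. Hnf4a, a nuclear receptor of both cell types, was at 535 and 604 CPM in G2APOL1, 577 and 461 CPM in G0APOL1, and 275 and 206 CPM in WT. It rose in G2APOL1 against WT (log2 1.24 ± 0.21, adjusted p = 0.00388) and in G0APOL1 against WT (log2 1.11 ± 0.21, adjusted p = 0.00632, edgeR; lost without G0APOL1 replicate 1, at 0.0644). Cebpb and Cebpd, leucine zipper factors of the acute phase response, fell in G2APOL1 against WT (log2 -1.03 ± 0.24, adjusted p = 0.0208, and log2 -1.86 ± 0.39, adjusted p = 0.0117, edgeR). The Cebpb call was lost without either G2APOL1 library and without WT replicate 1, and the Cebpd call without G2APOL1 replicate 2. In G0APOL1 against WT Cebpb had a log2 fold change of 0.13 ± 0.24 (adjusted p = 0.829, edgeR), and Cebpd did not pass (adjusted p = 0.133). Cebpa, of the same factor family, rose in G0APOL1 against WT (log2 0.94 ± 0.27, adjusted p = 0.0472, edgeR), a call lost in 7 of 12 alternatives, at up to 0.438.

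Serpins are folded in the endoplasmic reticulum and misfolded forms are degraded from it. Of 25 tested genes of folding, export and degradation, 4 rose in G2APOL1 against WT (Edem1, Edem3, Erlec1, Xbp1) and 7 rose in G0APOL1 against WT (Calr, Edem1, Edem3, Hsp90b1, Mcfd2, Pdia3, Xbp1). No gene of this list passed in the downward direction against WT. Xbp1, a transcription factor of the unfolded protein response, had log2 fold changes of 1.11 ± 0.21 in G2APOL1 against WT (adjusted p = 0.00706) and 1.12 ± 0.21 in G0APOL1 against WT (adjusted p = 0.00625, edgeR). Every one of the 4 calls in G2APOL1 against WT was lost without G2APOL1 replicate 2, and every one of the 7 in G0APOL1 against WT without G0APOL1 replicate 1. The list's median was 0.38 and 0.46 in these comparisons and -0.074 in G2APOL1 against G0APOL1, where edgeR called 0 and DESeq2 called Hsp90b1, and 3 genes had an unadjusted p under 0.05.

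Of 8 tested receptors of uptake and clearance, 3 rose in each comparison with WT: Lrp2 (megalin), Cubn (cubilin) and their adaptor Dab2. Lrp2, the endocytic receptor of the proximal tubule brush border, had log2 fold changes of 1.30 ± 0.21 in G2APOL1 against WT (adjusted p = 0.00277) and 1.45 ± 0.21 in G0APOL1 against WT (adjusted p = 0.00139, edgeR), both kept in every alternative run. The Cubn call was lost without G2APOL1 replicate 2 in G2APOL1 against WT and, in G0APOL1 against WT, without G0APOL1 replicate 1, without WT replicate 2 and in a fit of the 4 libraries compared, at an adjusted p of up to 0.217 with edgeR. The Dab2 call was lost without either G2APOL1 library in G2APOL1 against WT and kept in G0APOL1 against WT. Lrp1, a receptor that clears complexes of serpins and proteases, averaged 33.1 ± 0.921 CPM in G2APOL1, 48.4 ± 5.93 CPM in G0APOL1 and 66.4 ± 29.4 CPM in WT (SD, n = 2 each). It fell in G2APOL1 against WT (adjusted p = 0.0406, edgeR), a call lost without any of 5 libraries, WT replicate 1 being the exception, and in a fit of the 4 libraries compared.

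Hepatocytes are the main source of alpha-1 antitrypsin, and 30 of their markers were read beside it: 19 had a count, the rest had none, and 13 were tested. The liver genes Ahsg, Cps1, Cyp3a11, Mup3, Mup20 and Tat had 0 counts in all 6 libraries. Alb was at 2.91 and 6.41 CPM in G2APOL1, 10.7 and 7.81 CPM in G0APOL1, and 1.49 and 3.08 CPM in WT, and Hp, the haptoglobin gene, at 0.0857 and 6.62 CPM in G2APOL1, 0 and 0 in G0APOL1, and 2.78 and 1.10 CPM in WT. Alb was thus highest and Hp lowest in G0APOL1, and for Hp the G2APOL1 libraries lay on either side of WT. Hp did not pass with edgeR (adjusted p = 0.112 in G0APOL1 against WT and 0.386 in G2APOL1 against G0APOL1), while DESeq2 called it in both (adjusted p = 0.0232 and 0.0490) and Alb in G0APOL1 against WT (0.0423). Summed over the list, the level was 141 and 161 CPM in G2APOL1, 212 and 188 CPM in G0APOL1, and 111 and 105 CPM in WT. Apob was the largest part of each sum. Its level was 89.1 and 70.0 CPM in G2APOL1, 127 and 116 CPM in G0APOL1, and 48.3 and 32.5 CPM in WT. Apob, the apolipoprotein B gene, rose in G2APOL1 against WT (log2 0.98 ± 0.22, adjusted p = 0.0175; lost without G2APOL1 replicate 1 and without WT replicate 2) and in G0APOL1 against WT (log2 1.59 ± 0.23, adjusted p = 0.00111, edgeR). Fga, the fibrinogen alpha chain gene, rose in G0APOL1 against WT (log2 1.53, adjusted p = 0.0279, edgeR), a call lost without either G0APOL1 library, without WT replicate 1 and in a fit of the 4 libraries compared. The list's median was 0.51 in G2APOL1 against WT, 0.086 in G0APOL1 against WT and -0.62 in G2APOL1 against G0APOL1, where edgeR called 0 and 3 had an unadjusted p under 0.05. The part of hepatic genes in the Serpina1 values was not tested.

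Markers of the proximal tubule moved with both transgenic groups. Of 20 markers, 16 rose in G2APOL1 against WT (median log2 1.24) and 16 rose in G0APOL1 against WT (median 1.13), while in G2APOL1 against G0APOL1 only Pck1 of the 20 passed, and fell (median 0.017), a call lost without G0APOL1 replicate 2 and without either G2APOL1 library. Without either G2APOL1 library 7 of the 20 rose in G2APOL1 against WT, and without G0APOL1 replicate 1 there were 9 in G0APOL1 against WT. Of 12 markers of its straight part (S3), 5 rose in G2APOL1 against WT and 4 in G0APOL1 against WT, with medians of 0.51 and 0.39; none of the 12 passed in G2APOL1 against WT with edgeR without either G2APOL1 library, and 1 in G0APOL1 against WT without G0APOL1 replicate 1. Serpina1f, also listed among the clade A serpins, was 1 of the 5 S3 genes that rose in G2APOL1 against WT. The other 4 (Ghr, Mep1a, Slc7a13 and Slco1a6) were those that rose in G0APOL1 against WT. Summed proximal tubule levels were 63445 and 58857 CPM in G2APOL1, 63755 and 55611 CPM in G0APOL1, and 57307 and 36354 CPM in WT. Kap was the largest part of each sum. It was at 38309 and 33619 CPM in G2APOL1, 36037 and 29494 CPM in G0APOL1, and 43467 and 25798 CPM in WT. Kap did not pass in any comparison with edgeR. Gatm, the first enzyme of creatine synthesis, had a log2 fold change of 2.66 ± 0.21 in both comparisons with WT (adjusted p = 1.72e-05 in G2APOL1, 2.37e-05 in G0APOL1, edgeR). The part of tubule content in the Serpina1 values was not tested.

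In the wild mouse species Mus caroli, kidney alpha-1 antitrypsin RNA is known to depend on androgen, so sex-biased genes were read beside the family. Of 10 genes with male-biased kidney expression, 6 rose in G2APOL1 against WT and 5 in G0APOL1 against WT (medians 0.95 and 0.72), and of 7 female-biased genes 1 and 3 rose. Without G0APOL1 replicate 2, 1 male-biased gene rose in G0APOL1 against WT, and without G0APOL1 replicate 1, 1 female-biased gene did. Akr1c21, a male-biased steroid dehydrogenase gene, was at 1802 and 1644 CPM in G2APOL1, 651 and 1305 CPM in G0APOL1, and 395 and 280.1 CPM in WT. The Y-linked gene Ddx3y was at 20.7 and 28.1 CPM in G2APOL1, 26.7 and 27.7 CPM in G0APOL1, and 27.1 and 28.9 CPM in WT, and Xist did not exceed 4.46 CPM in any library. None of the 4 tested genes of the X and Y list passed in any comparison with edgeR or DESeq2, and 0 had an unadjusted p under 0.05.

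Alpha-1 antitrypsin is also an acute phase protein. Of 12 tested acute phase genes and cytokine receptors, 2 fell in G2APOL1 against WT (Cp and Lcn2) and 3 fell in G0APOL1 against WT (C3, Cp and Lcn2), with medians of -0.76 and -1.28. In G2APOL1 against G0APOL1 the median was 0.38, edgeR called 0, DESeq2 called Hp (a gene of both lists), and C3, Hp and Il6ra had an unadjusted p under 0.05. C3, the central complement component, was at 5.57 and 16.6 CPM in G2APOL1, 1.71 and 2.72 CPM in G0APOL1, and 9.42 and 26.8 CPM in WT, so that G2APOL1 overlapped WT and G0APOL1 lay below both. Its call in G0APOL1 against WT (log2 -3.03, adjusted p = 0.0159, edgeR) was lost without either G0APOL1 library and without WT replicate 2, where it was -2.09. The call of Cp, the ceruloplasmin gene, was lost without G2APOL1 replicate 1 in G2APOL1 against WT, and without either G0APOL1 library or WT replicate 2 in G0APOL1 against WT. Lcn2, the tubular injury marker lipocalin 2, was at 4.54 and 2.03 CPM in G2APOL1, 4.16 and 0.828 CPM in G0APOL1, and 21.1 and 24.4 CPM in WT. It fell in G2APOL1 against WT (log2 -2.77 ± 0.61, adjusted p = 0.0162; lost without G2APOL1 replicate 2 and without WT replicate 2) and in G0APOL1 against WT (log2 -3.17 ± 0.63, adjusted p = 0.00917, edgeR). Its log2 fold change in G2APOL1 against WT was -3.45 without G2APOL1 replicate 1, and in G0APOL1 against WT -4.81 without G0APOL1 replicate 1 and -2.43 without G0APOL1 replicate 2.

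Serpina1b was low in both transgenic groups, where some markers of several other cell types also fell. Of 8 endothelial markers, 6 fell in each comparison with WT, with medians of -1.11 in G2APOL1 and -1.20 in G0APOL1, and their summed level was 302 and 307 CPM in G2APOL1, 271 and 232 CPM in G0APOL1, and 603 and 661 CPM in WT. Emcn, the endothelial sialoprotein endomucin, had log2 fold changes of -1.44 ± 0.20 in G2APOL1 against WT (adjusted p = 0.00123) and -1.73 ± 0.20 in G0APOL1 against WT (adjusted p = 0.000335, edgeR). Of 9 tested macrophage markers 5 fell in each comparison with WT, and of 7 urothelial markers 3 fell in G2APOL1 and 4 in G0APOL1, with summed urothelial levels of 14.3 and 22.9 CPM in G2APOL1, 10.9 and 21.4 CPM in G0APOL1, and 118 and 97.0 CPM in WT. Without either G2APOL1 library 2 endothelial and 2 macrophage markers fell in G2APOL1 against WT, and without G0APOL1 replicate 2 there were 3 and 1 in G0APOL1 against WT. Of the urothelial markers 1 fell in G2APOL1 against WT without G2APOL1 replicate 1, and 2 in G0APOL1 against WT without WT replicate 1. The part of these cell types in the Serpina1b values was not tested.

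**Figure D5:**
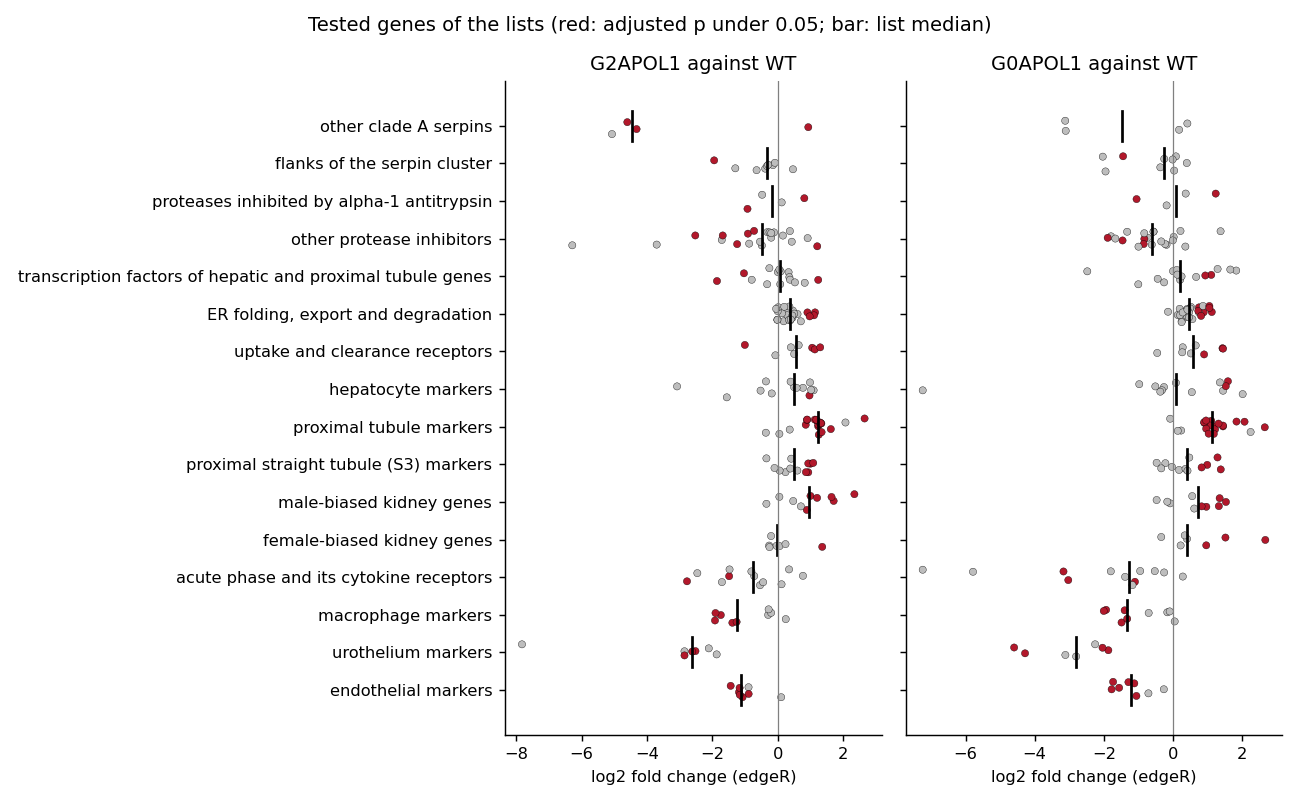
Log2 fold changes from edgeR of the tested genes in 16 lists, in G2APOL1 against WT (left) and G0APOL1 against WT (right); each point is a gene, red where the adjusted p was under 0.05, and the bar is the list median. Proximal tubule medians are 1.24 and 1.13, and endothelial medians are -1.11 and -1.20.

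Likeness of pattern was measured by Pearson's r of log2 CPM (prior count of 2) with the family sum over 6 libraries, among 9758 genes that reached 10 CPM in a library. All values share the 6 libraries and their depths, r ignores the size of a change, and no p is given. The most alike genes were Cxcl12 (r 0.976), Hist1h2al (0.974, with 6 near-identical copies in the annotation), Nudt6 (0.969), Nasp (0.965), Usp12 (0.962), Lsm12 (0.960), Nipal2 (0.960) and Wdr3 (0.959). Their changes were smaller than that of the family, except for Hist1h2al in the comparisons with G0APOL1. Hist1h2al, a histone H2A gene, was at 10.5 and 6.49 CPM in G2APOL1, 0 and 0 in G0APOL1, and 8.99 and 3.48 CPM in WT. Nipal2, a gene of the magnesium transporter-like NIPA family, was at 21.1 and 20.3 CPM in G2APOL1, 4.59 and 5.91 CPM in G0APOL1, and 19.5 and 19.2 CPM in WT. Cxcl12, the chemokine that binds CXCR4, was at 284 and 258 CPM in G2APOL1, 182 and 179.9 CPM in G0APOL1, and 233 and 227 CPM in WT.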

How the data were processed

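RNA of 6 mouse kidney libraries was measured. Per the labels, RNA came from 10 mg of frozen tissue (integrity number 6 or more), went through the NEBNext Ultra RNA kit and was sequenced as paired 150 bp reads; all 6 libraries carry batch 1. The deposited table holds expected counts per gene (estimated read numbers, unscaled). The submitters' processing notes name mm10 and Cell Ranger ARC 2.0.2 with no role; how reads shared by near-identical copies were assigned, and by which aligner and counter, is not given in the sources used here. Of the 54146 genes, 54079 matched GENCODE M21 (GRCm38) by identifier, 52480 of them with version.

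Counts were rounded for the tests, filtered with filterByExpr by group (14386 genes, 4 of the 5 members) and TMM-scaled. All 6 libraries went into 1 fit (edgeR 4.0.16, R 4.3.3, quasi-likelihood F test, robust, two-sided, 3 residual degrees of freedom, common biological coefficient of variation 0.315), with Benjamini-Hochberg adjustment over all genes tested and a threshold of 0.05. The fit pools the spread of all 3 groups; the SE is the log2 fold change divided by the square root of F. Member and family levels use unrounded counts, ratios of mean CPM, and a floor of 3 counts over a group at 0. Exact permutation of 2 against 2 libraries could not go below p = 0.333. The members and the 19 gene lists (256 genes) were chosen with earlier results of these data known. Lists share genes, so their counts are not separate results. Serpina1f is in the clade A and S3 lists, and Lrp2 and Cubn are in the uptake and proximal tubule lists. Hnf4a is in the transcription factor and proximal tubule lists, Slc7a13 in the S3 and male-biased lists, and Hp in the hepatocyte and acute phase lists. Named genes are the members, up to 4 genes per list with the smallest p in G2APOL1 against WT, a set given in any case (Serpina1f, Serpina6, Serpina10, Serpina11, Hnf4a, Alb, Ahsg, Elane, Lrp2, Xist; 1 other gene of it is not reported here), the 8 genes most like the family sum, and protein-coding neighbours within 200 kb; the other genes named in list counts were named after their values were seen. Correlations of replicate 1 deviations between groups were 0.0426 to 0.0956. Such values cannot show whether replicate numbers pair the libraries, and the main fit used no pairing. Alternatives were other scalings, filters, DESeq2 1.42.0, a replicate block, fits of 4 libraries and leaving out each library. The fit was run on counts simulated from its own model and dispersions, which cannot test how well that model holds for these libraries. Sequences were aligned with mafft 7.526, near-identical copies found with minimap2 2.31 (identity of 95% or more across 50% or more of a transcript), and promoters taken from RefSeq. Tables were made with pandas 2.3.3 and numpy 2.4.6 in Python 3.11.15, and plots with matplotlib 3.10.9.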

Additional observations from a re-analysis of the deposited data

Results flagged for a closer look

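The family sum, Serpina1a and Serpina1d differed between the 2 transgenic groups in the direction of their difference from WT: both G2APOL1 libraries were above both WT libraries and both G0APOL1 libraries below them. The log2 ratios of mean CPM were 1.23 in G2APOL1 and -3.60 in G0APOL1 for the family sum, and 1.89 and -3.69 for Serpina1a. Serpina1d had a log2 ratio of 7.48 in G2APOL1 against WT and summed counts of 0 in G0APOL1. Its place below WT in G0APOL1 rests on 5.34 and 13.3 WT counts. Its WT shares of the family, 0.470% and 1.38%, lay under the 2.94% and 5.0% that 0 counts allow in G0APOL1. A fall of Serpina1d in G0APOL1 beyond that of the family sum was thus not shown. Both comparisons with WT share the WT libraries, and the difference between these comparisons was not tested.

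The same arrangement was found in 6 of the genes named for their likeness to the family sum, which that choice favours. The log2 ratios in G2APOL1 and in G0APOL1 against WT were 0.24 and -0.35 for Cxcl12, 0.26 and -0.47 for Nudt6, 0.21 and -0.43 for Nasp, 0.24 and -0.55 for Usp12, 0.059 and -0.14 for Lsm12, and 0.094 and -1.88 for Nipal2. These differences were not tested either. Nipal2 passed in G0APOL1 against WT (log2 -1.88 ± 0.34, adjusted p = 0.0044, edgeR) and in G2APOL1 against G0APOL1 (log2 1.98 ± 0.34, adjusted p = 0.0195, edgeR), the second call being lost without any of the 4 transgenic libraries, at up to 0.112.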

How the results depend on the processing

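The log2 ratio of the family sum kept its direction in every alternative run. Leaving out each library gave 1.10 to 1.35 in G2APOL1 against WT, -3.94 to -3.32 in G0APOL1 against WT, and 4.56 to 5.17 in G2APOL1 against G0APOL1. Other scalings gave 1.08 to 1.22, -3.76 to -3.62 and 4.84 to 4.88, the first range reaching below that of the left-out libraries with total counts without mitochondrial genes. With Serpina1f added to the sum it was -0.69 in G0APOL1 against WT and 1.78 in G2APOL1 against G0APOL1. Of 90 ratios of members and sum under alternatives, 88 stayed within the spread between replicates. That spread comes from the same 2 replicates per group, so leaving out a library could hardly exceed it. Nothing is read from this count. The number of genes called in G2APOL1 against WT (1178) was 1806 without the low-count filter and 338 to 1835 when a library was left out (338 without G2APOL1 replicate 1, 366 without G2APOL1 replicate 2, 1835 without WT replicate 1). In G0APOL1 against WT (1175) it was 658 in a fit of the 4 libraries compared and 599 to 1721 when a library was left out (lowest without G0APOL1 replicate 1). In G2APOL1 against G0APOL1 (69) it was 245 without the filter, 119 with the 4 libraries compared, 146 with DESeq2 and 27 to 150 when a library was left out (lowest without G2APOL1 replicate 2). With the replicate block, 1724, 1618 and 120 genes were called. Group means of log2 CPM (prior count of 2) gave family ratios of 1.23, -3.60 and 4.83. In this balanced layout a replicate block leaves such ratios unchanged, so they are no check of pairing. Whether replicate numbers pair the libraries is not known. Of 1056 repeats of single calls, 941 stayed and 115 no longer passed; none reversed. The cause of these shifts was not tested.

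Depth limits Serpina1c, Serpina1d and Serpina1e in G0APOL1, where the whole family had 102 and 60 counts, and 2 libraries per group leave each SD with 1 degree of freedom. The split of reads between near-identical copies was made before the table was deposited and was not tested; the family sum does not depend on the split between the 5 members.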

Other observations

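Genes most like Serpina1b alone over the 6 libraries were Plvap (r 0.998), Emcn (0.997), Angpt2 (0.996), Gsn (0.993) and Epn2 (0.992); Plvap, Emcn and Angpt2 are known from endothelium. This measure was chosen after the data were seen. A gene high in WT and low in both transgenic groups scores high on it, and the cell source of Serpina1b was not tested. Emcn was at 36.5 and 37.5 CPM in G2APOL1, 33.5 and 26.7 CPM in G0APOL1, and 102 and 98.6 CPM in WT. Angpt2, an angiopoietin that acts on the receptor TEK, was at 6.52 and 6.73 CPM in G2APOL1, 5.34 and 3.78 CPM in G0APOL1, and 43.3 and 39.9 CPM in WT. Genes most like Serpina1d were Elavl1 (0.980), Ccdc6 (0.971), Mtmr2 (0.967), Sfpq (0.965) and Ets2 (0.962). Ccdc6 was at 281 and 289 CPM in G2APOL1, 84.8 and 87.4 CPM in G0APOL1, and 144 and 115 CPM in WT.

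Within 5 Mb of the cluster, a window chosen after the data were seen, 69 genes other than the members were tested. Of these, 6 were called in G2APOL1 against WT (Dglucy, Ifi27, Lgmn, Serpina10, Serpina1f and Serpina3n), or 8.70%, against 8.19% of all genes tested. In G0APOL1 against WT 4 were called (Dglucy, Evl, Ifi27 and Lgmn), or 5.80%, against 8.17%. In G2APOL1 against G0APOL1 0 were called with edgeR and 2 with DESeq2, 4 had an unadjusted p under 0.05, and 0.480% of all genes were called with edgeR.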
